A study of Mus musculus with 28 samples.

Results

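Insulin-like growth factor (IGF) binding proteins and their partners were measured by RNA-seq in sorted vascular cells of mouse brain with and without brain metastasis (BrM). The set is a named list of 9 genes, the binding proteins Igfbp2, Igfbp3, Igfbp4, Igfbp5, Igfbp6 and Igfbp7, the ligand Igf1 and the receptors Igf1r and Igf2r. It was looked up by symbol in the count table, and all 9 genes were found among its 53647 gene IDs. No rule on measured values picked them, but the list was chosen with earlier results of these data known.

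IGF-binding proteins are secreted carriers that hold IGF-1 and IGF-2 outside the cell, prolong their life and control how much ligand reaches the type 1 receptor, a tyrosine kinase that signals through the PI3K and AKT pathway. The type 2 receptor, encoded by Igf2r, takes up IGF-2 and mannose 6-phosphate tagged enzymes for delivery to lysosomes. Proteases cut the binding proteins and free the ligand, and several binding proteins also act on integrins and matrix without IGF. In brain, vessel cells are known producers of several of them, and Igfbp3 and Igfbp7 are known as genes of growing and tumor-associated endothelium.

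The study compared endothelial and mural cells of BrM with those of non-tumor brain. All mice are described as PDGFRβ-CreERT2; Rosa-tdTomato animals given 2 mg tamoxifen a day on 5 days, so that cells in which the Pdgfrb promoter drives the inducible Cre, and their descendants, carry the red reporter. BrM were grown from intracardially injected PyMT-BrM3 breast cancer cells or Sv2T3-BrM1 lung cancer cells. Whether non-tumor mice had a sham injection, and the age and sex of the mice, are not given in the labels. Cells were gated as CD45-CD11B-EPCAM- and then as CD31+ (endothelial, the CD31 sort) or tdTom+ (mural, the PDGFRb sort). The CD31 sort has 5 libraries each from non-tumor brain, breast BrM and lung BrM, and the PDGFRb sort has 5, 4 and 4. The 28 libraries come from 15 mice or pools, 13 of which gave both sorts, and 2 lung labels name 2 mice each and were kept as 1 replicate each. Library totals ranged from 7105172 to 23934043 counts.

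Several libraries stand apart and bear on the results. Among the 4 PDGFRb libraries of lung BrM, that of mouse 51435 held 446 CPM (counts scaled to a common library total) of Pdgfrb. The other 3 held 36.4, 38.4 and 43.8 CPM, and those of non-tumor brain held 876 to 1655 CPM. Mouse 51950 gave a shallow PDGFRb breast library, the lowest total of all 28, with 9189 genes detected. For mouse 54135 the sample title and the cell type label name opposite sorts. The library titled CD31 held 1266 CPM of Pecam1, which encodes CD31, and the one titled PDGFRb held 1064 CPM of Pdgfrb, and both were grouped by title. Where leaving out or regrouping these libraries ended a call on the 9 genes, this is stated with the result. The summed level of 10 epithelial markers (Krt8, Krt18, Epcam and others), taken as a sign of RNA from cancer cells or other epithelium, was 0.109 to 8.16 CPM in CD31 libraries of non-tumor brain, 120 to 3001 CPM in breast BrM and 94.6 to 2267 CPM in lung BrM. In the PDGFRb sort it was 5.57 to 68.1 CPM, 817 to 3938 CPM and 5941 to 10464 CPM. In CD31 libraries the 10 endothelial markers summed to 12795 to 14366 CPM in non-tumor brain, 5714 to 10925 CPM in breast BrM and 7704 to 11527 CPM in lung BrM.

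**Figure D1:**
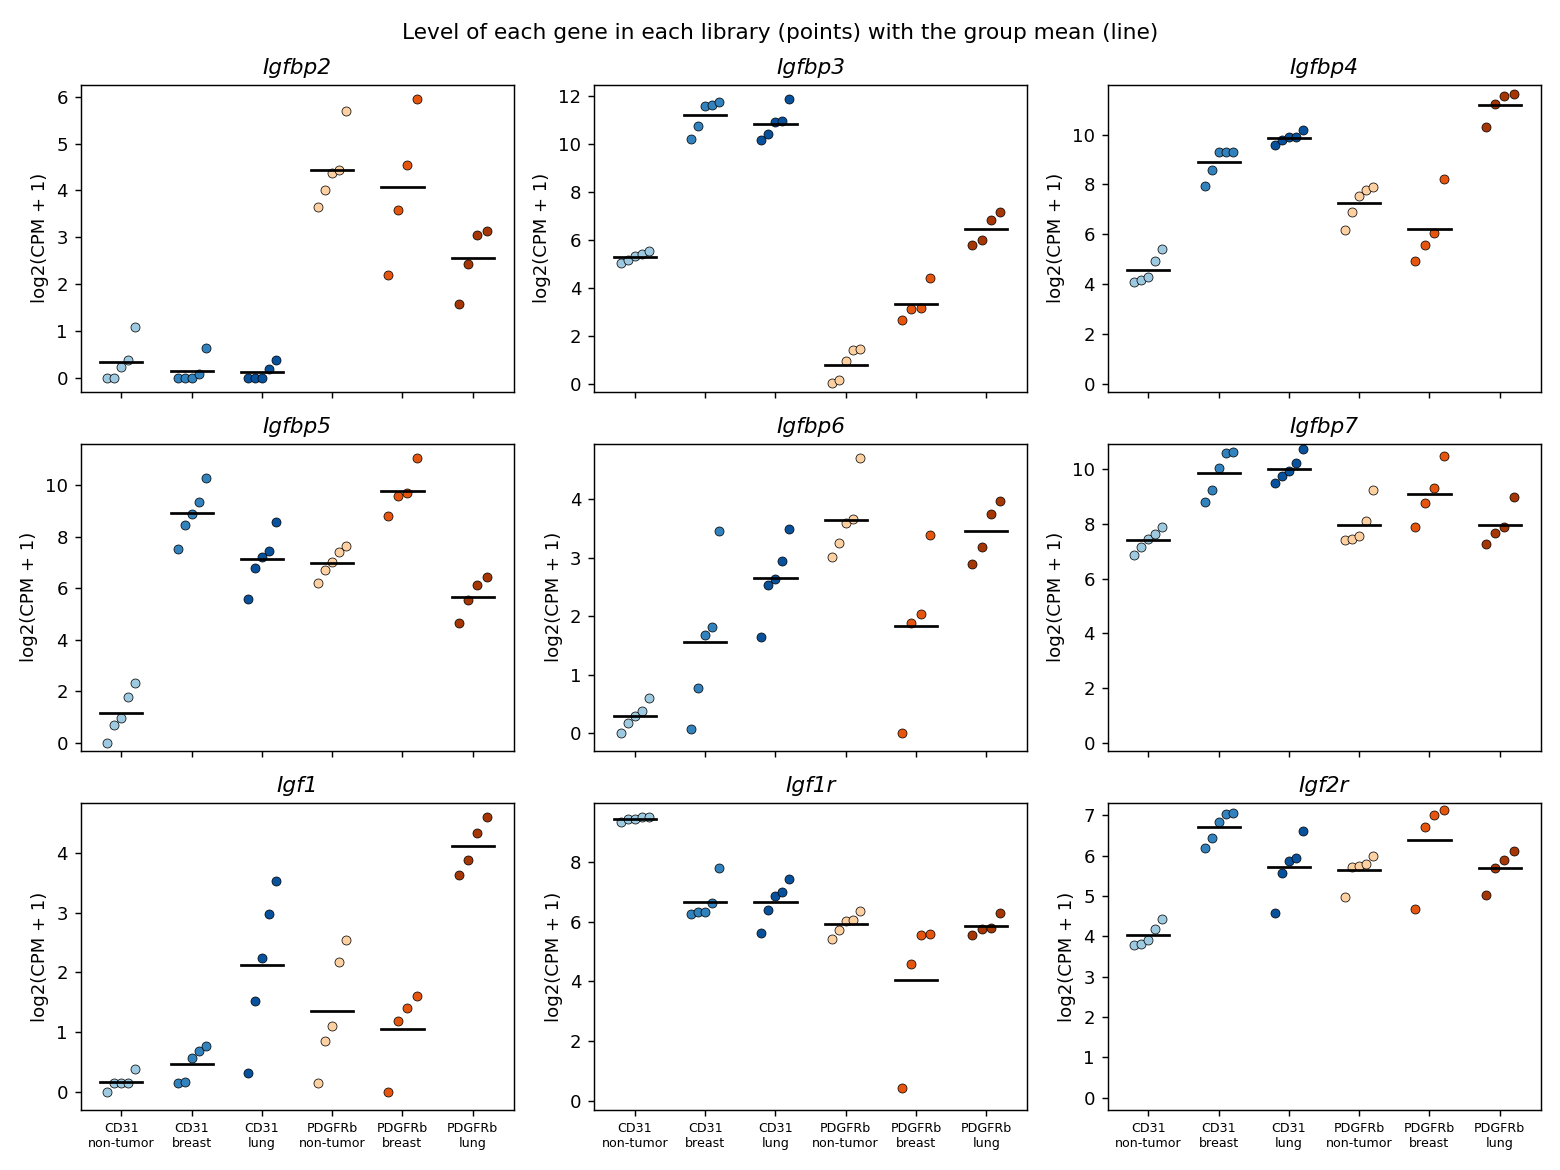
Level of each of the 9 genes as log2(CPM + 1), 1 point per library and a line at the mean of the group on that scale, for the CD31 sort (blue) and the PDGFRb sort (orange) of non-tumor brain, breast BrM and lung BrM. Igfbp3 and Igfbp4 of all CD31 BrM libraries lie above those of non-tumor brain, and Igf1r of all CD31 BrM libraries lies below.

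In non-tumor brain the 2 sorts carried different binding proteins. Igfbp3 was far higher in the CD31 sort, and Igfbp2, Igfbp5 and Igfbp6 were far higher in the PDGFRb sort. Compared with the CD31 sort, the PDGFRb sort had 6 of the 9 genes higher and 2 lower, beside 17.4% and 10.5% of all 18548 genes tested (27.9% called in all). The threshold for a call was a p under 0.05, after Benjamini-Hochberg adjustment, in edgeR's quasi-likelihood test, the test behind every adjusted p below unless another tool is named.

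Igfbp3, which encodes the main IGF carrier of blood plasma, stood at 39.0, 31.6, 34.9, 41.4 and 46.1 CPM in the CD31 libraries and at 0.947, 1.70, 0.045, 0.132 and 1.79 CPM in the PDGFRb libraries of non-tumor brain. The groups did not overlap, and the log2 difference of the PDGFRb sort was -5.38 ± 0.61 (SE, adjusted p = 1.6e-07). Igfbp5, a binding protein held in extracellular matrix, showed the opposite order. It was at 3.98, 2.49, 0.624, 0 and 0.97 CPM in CD31 libraries and at 129, 72.7, 168, 103 and 197 CPM in PDGFRb libraries (log2 difference 6.37 ± 0.80, adjusted p = 7.3e-07). Igfbp2, a carrier found in cerebrospinal fluid, was at 0 to 1.12 CPM in CD31 and 11.4 to 50.7 CPM in PDGFRb libraries (6.19 ± 1.27, adjusted p = 0.00048). Igfbp6, which prefers IGF-2, was at 0 to 0.524 and 7.06 to 25.2 CPM (5.71 ± 1.13, adjusted p = 0.00033). Igfbp4, a binding protein that inhibits IGF action, was at 15.98 to 41.5 CPM in CD31 and 71.4 to 237 CPM in PDGFRb libraries (2.77 ± 0.48, adjusted p = 6.5e-05).

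Igfbp7, which binds IGF weakly, was abundant in both sorts, at 116 to 238 CPM in CD31 and 168 to 600.2 CPM in PDGFRb libraries, and these overlapped (0.70 ± 0.44, adjusted p = 0.27). The receptors split. Igf1r, the type 1 receptor, was at 735, 723, 697, 643 and 689 CPM in CD31 libraries, the narrowest spread of the set, and at 42.2 to 82.0 CPM in PDGFRb libraries (-3.51 ± 0.57, adjusted p = 2.8e-05). Igf2r was at 12.9 to 20.7 and 30.4 to 62.1 CPM (1.69 ± 0.38, adjusted p = 0.0011). The ligand Igf1 was low everywhere in non-tumor brain, at 0 to 0.311 CPM in CD31 and 0.103 to 4.80 CPM in PDGFRb libraries. These overlapped (3.97 ± 1.07, adjusted p = 0.0054), and with the mouse as a block the call was lost (3.68, adjusted p = 0.12). Igf2, the other ligand, was higher in the PDGFRb sort, at 117 to 248 CPM against 0.816 to 2.49 CPM in CD31 libraries (6.71 ± 1.25, adjusted p = 0.00016). In the non-tumor PDGFRb libraries 10 fibroblast markers summed to 1031 to 2750 CPM and 6 choroid plexus markers to 78.2 to 1363 CPM. The part of such cells in the differences between the sorts was not tested. With the libraries of mouse 54135 placed by their cell type labels, none of the 9 genes was called.

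Levels of different genes can be compared only per length, for which the deposited FPKM (fragment counts divided by transcript length and by the size of the library) were used. Igfbp7 made up 85.8% ± 3.76 (SD, n = 5) of the summed FPKM of Igfbp2 to Igfbp7 in CD31 libraries of non-tumor brain. Igfbp3 followed with 7.76% ± 1.85 and Igfbp4 with 6.02% ± 2.78, whose ranges of 6.26% to 10.8% and 2.32% to 8.82% overlapped. Among mural cells of non-tumor brain Igfbp7 held 65.4% ± 10.3 and Igfbp4 19.4% ± 7.56 (n = 5), followed by Igfbp2 with 5.88% ± 1.25, Igfbp5 with 5.77% ± 3.22 and Igfbp6 with 3.55% ± 2.16, while Igfbp3 held 0.0779% ± 0.0722. The shares of Igfbp2, Igfbp5 and Igfbp6 overlapped, and those of Igfbp7, Igfbp4 and Igfbp3 did not overlap each other.

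In endothelial cells of BrM nearly the whole set moved. Igfbp3, Igfbp4, Igfbp5, Igfbp6, Igfbp7 and Igf2r rose in breast BrM, the same genes and Igf1 rose in lung BrM, and Igf1r fell in both. In breast BrM 6 of the 8 genes tested rose and 1 fell, while 18.6% of all 14876 genes tested rose and 11.4% fell (30.1% called). In lung BrM 7 rose and 1 fell, beside 20.4% and 14.5% of all genes (34.8% called). The median log2 change of the 8 genes was 3.25 in breast and 4.92 in lung BrM, and that of all genes was 0.04 and -0.00. Igfbp2 did not pass the filter on low counts in this sort, with 27, 8 and 7 counts summed over the 5 libraries of each group, non-tumor brain first, then breast BrM, then lung BrM. Both BrM groups were compared with the same 5 non-tumor libraries, so the comparisons are not independent. In bulk samples more RNA per cell and more cells of a type cannot be told apart.

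Igfbp3 stood at 1700.4, 3063, 3449.7, 1186 and 3080.0 CPM in the 5 CD31 libraries of breast BrM and at 1339.7, 3700.2, 1125, 1894 and 1949.7 CPM in those of lung BrM, against 31.6 to 46.1 CPM in non-tumor brain. Every BrM library lay far above every non-tumor library. The rise was 65.8-fold in breast BrM (log2 6.04 ± 0.39, adjusted p = 2e-08) and 54.4-fold in lung BrM (5.77 ± 0.39, adjusted p = 2.3e-08).

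Igfbp4 stood at 636, 384, 632, 243 and 625 CPM in breast BrM and at 763, 969, 868, 952 and 1165 CPM in lung BrM, against 15.98 to 41.5 CPM. It rose 21.0-fold (log2 4.39 ± 0.33, adjusted p = 8e-08) and 40.3-fold (5.33 ± 0.34, adjusted p = 1.5e-08). Lung BrM libraries all lay above breast BrM libraries, the only gene of the set with such a gap between the tumor groups, but the difference was not called (0.94 ± 0.29, adjusted p = 0.11, and 0.027 in DESeq2).

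Igfbp5 had the largest change of the set. It stood at 649, 184, 348, 1249.6 and 467 CPM in breast BrM and 46.5, 379, 148, 172 and 110.4 CPM in lung BrM, against 0 to 3.98 CPM in non-tumor brain. The log2 changes were 8.53 ± 0.91 (adjusted p = 3.4e-06) and 6.79 ± 0.85 (adjusted p = 1.7e-05). Both calls ended with mouse 54135 placed by cell type label (3.98, adjusted p = 0.073, and 2.27, adjusted p = 0.24). That placement puts the library with 1064 CPM of Pdgfrb and 168 CPM of Igfbp5 among the CD31 libraries. No other alternative ended either call, leaving out both libraries of that mouse included.

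Igfbp7 stood at 613, 1572, 1558, 444 and 1053 CPM in breast BrM and 723, 1705, 858, 984 and 1189 CPM in lung BrM, all above the non-tumor libraries. Starting from the highest level, it rose least among the binding proteins, 6.16-fold (log2 2.62 ± 0.35, adjusted p = 3e-05) and 6.60-fold (2.72 ± 0.35, adjusted p = 2e-05). Igfbp6 stayed low, at 2.54, 10.03, 0.0572, 0.699 and 2.19 CPM in breast BrM, which overlapped non-tumor brain, and at 4.82, 6.66, 2.15, 5.20 and 10.3 CPM in lung BrM, which did not. Its log2 changes were 3.68 ± 1.07 (adjusted p = 0.015) and 4.65 ± 1.11 (adjusted p = 0.0041). The breast call ended without the library of mouse 52599 (2.51, adjusted p = 0.071) and with limma on the deposited log2 values (2.86, adjusted p = 0.084). With mouse 54135 placed by cell type label both Igfbp6 calls ended, at 0.86 (adjusted p = 0.71) and 1.86 (adjusted p = 0.34).

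The receptors moved in opposite directions. Igf1r stood at 97.4, 223, 78.5, 76.5 and 79.6 CPM in breast BrM and 82.4, 48.0, 171, 127 and 114 CPM in lung BrM, all below the 643 to 735 CPM of non-tumor brain. Its log2 change was -2.62 ± 0.33 (adjusted p = 1.8e-05) in breast and -2.63 ± 0.33 (adjusted p = 1.6e-05) in lung BrM. Igf2r stood at 112, 85.8, 131, 71.5 and 132 CPM in breast BrM and 57.0, 97.3, 46.5, 60.2 and 22.8 CPM in lung BrM, above the 12.9 to 20.7 CPM of non-tumor brain. The log2 rises were 2.81 ± 0.31 (adjusted p = 4.7e-06) in breast and 1.93 ± 0.30 (adjusted p = 0.00013) in lung BrM. The ligand Igf1 stood at 0.706, 0.482, 0.114, 0.117 and 0.610 CPM in breast BrM (1.66 ± 0.97, adjusted p = 0.22) and at 0.244, 10.6, 3.72, 6.89 and 1.86 CPM in lung BrM (5.19 ± 1.07, adjusted p = 0.0014), where the library of mouse 51435 overlapped non-tumor brain. Igf2 was at 0 to 0.235 CPM in breast BrM (-4.27 ± 1.57, adjusted p = 0.05, not under the threshold) and at 0 in 4 and 3.33 CPM in 1 of the lung BrM libraries.

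With the date in the column names as a covariate, 3 of the lung calls ended, Igfbp6 (3.97, adjusted p = 0.20), Igf1 (5.59, adjusted p = 0.10) and Igf2r (1.05, adjusted p = 0.14), and so did Igfbp6 in breast BrM (4.89, adjusted p = 0.11). Within single dates, which hold 1 to 3 libraries a group, Igfbp3 changed by 5.15 and 6.47 in breast BrM and 5.05 in lung BrM as differences of mean log2(CPM + 1), Igfbp4 by 4.34, 4.13 and 5.19, Igfbp7 by 2.16, 3.26 and 2.22, and Igf1r by -3.08, -2.63 and -2.24.

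**Figure D2:**
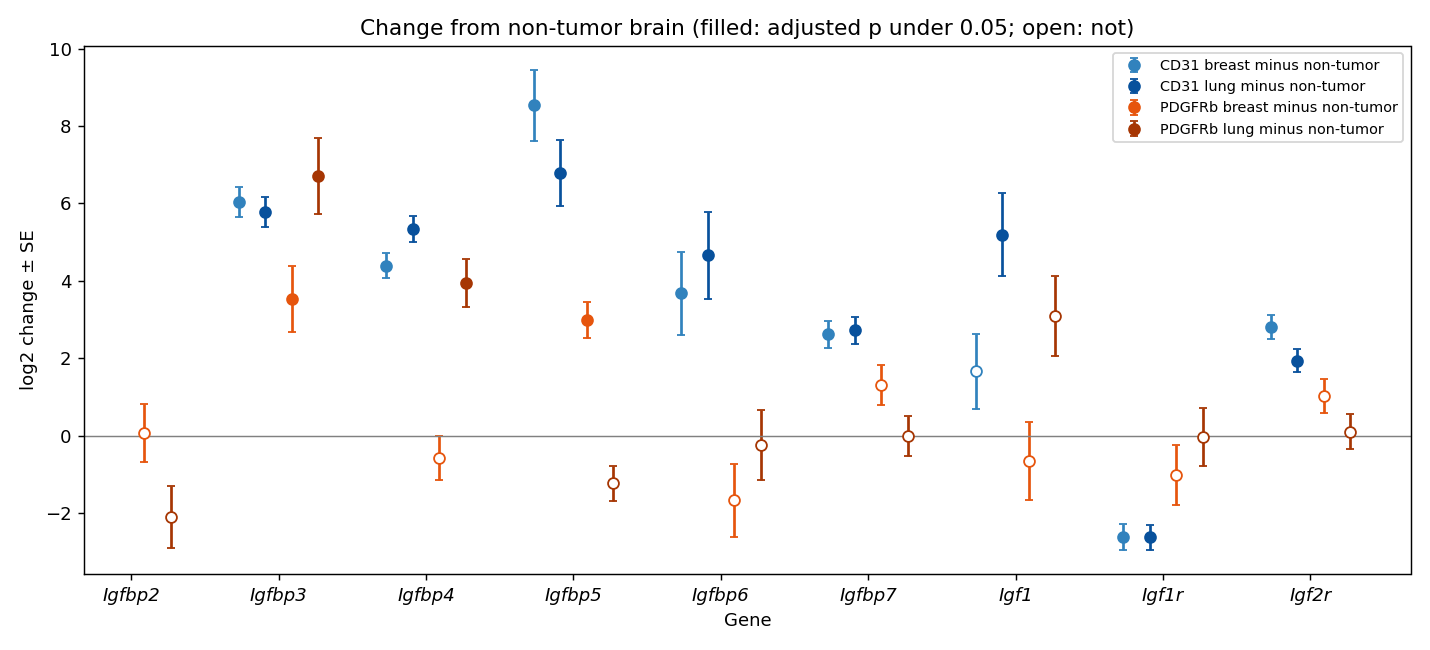
Log2 change from non-tumor brain (points) with its standard error (bars) for the 9 genes in the CD31 sort (blue) and the PDGFRb sort (orange), with filled points for genes called at an adjusted p under 0.05. In the CD31 sort all changes but that of Igf1r are above 0, and Igfbp2, not tested there, has no blue point.

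Markers of cell types were also tested in the CD31 sort, where 30.1% of all genes were called in breast BrM and 34.8% in lung BrM. Of the 9 epithelial markers tested, 8 were higher in breast BrM and 7 in lung BrM, with none of the 10 at 0 over a whole group. Epcam was at 12.9 to 411 CPM in the breast BrM libraries. In lung BrM it was at 0 in mice 55169-70 and 56195-56520 and at 0.854, 1.79 and 38.5 CPM in mice 51435, 51697 and 54957. Krt8 was at 37.0 to 825 CPM in these lung libraries. Microglia and macrophage markers were higher in 3 of 8 and 5 of 8 tests, and of 10 endothelial markers 1 was higher and 3 were lower in each BrM group. The 8 astrocyte markers summed to 161 to 193 CPM in non-tumor brain, 353 to 715 CPM in breast BrM and 279 to 630 CPM in lung BrM. Of the 7 tested, 2 were higher and 2 lower in breast BrM, and 1 was higher and 2 lower in lung BrM. Of 9 pericyte markers tested, 2 were higher and 1 lower in breast BrM, and 2 were higher and 2 lower in lung BrM. The pericyte sum was 14.8 to 42.7 CPM in non-tumor brain, 21.2 to 47.7 CPM in breast BrM and 25.8 to 223 CPM in lung BrM. The 223 CPM were in mouse 51697, which had the highest Igfbp5 of lung BrM (379 CPM). Of 5 fibroblast markers tested, none was called in breast BrM, and 2 were higher and 1 lower in lung BrM. Igfbp5 ran nearly in the order of the epithelial sum in breast BrM and not in lung BrM. In breast BrM mice 53072, 51950, 52865, 53142 and 52599 had epithelial sums of 3001, 1088, 274, 250 and 120 CPM. Their Igfbp5 was at 1249.6, 649, 348, 467 and 184 CPM. In lung BrM mice 51435, 51697, 54957, 56195-56520 and 55169-70 had epithelial sums of 2267, 1298, 587, 242 and 94.6 CPM. Their Igfbp5 was at 46.5, 379, 148, 110.4 and 172 CPM. The 4 PDGFRb lung libraries, with the highest epithelial sums of all (5941 to 10464 CPM), held 24.0 to 84.97 CPM of Igfbp5, 53.98 to 141 CPM of Igfbp3 and 1245 to 3127 CPM of Igfbp4. These were the highest Igfbp4 levels of all libraries. In the CD31 lung library of mouse 55169-70, with the lowest epithelial sum of the BrM libraries (94.6 CPM), Igfbp3 was at 1894 CPM and Igfbp4 at 952 CPM. The part of other cells in the changes of the 8 genes was not tested.

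**Figure D3:**
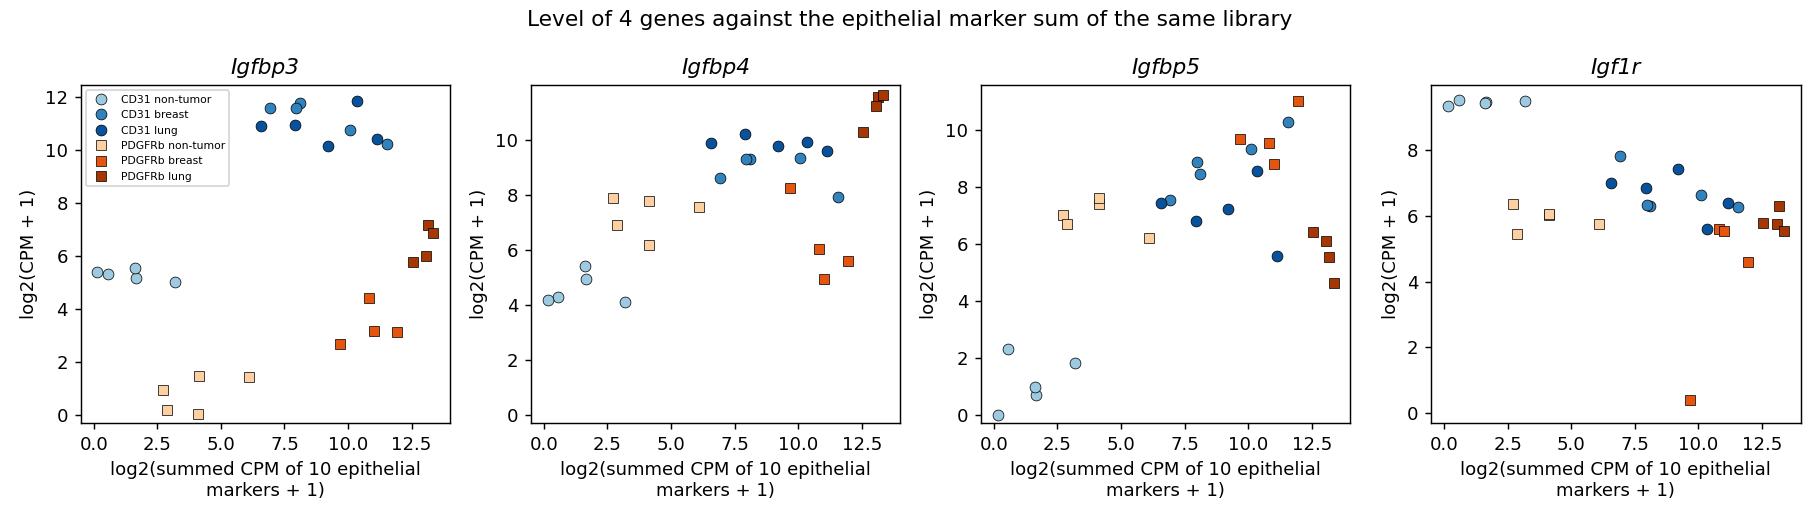
Level of Igfbp3, Igfbp4, Igfbp5 and Igf1r in each library as log2(CPM + 1) against the summed CPM of 10 epithelial markers in the same library as log2(sum + 1), circles for the CD31 sort and squares for the PDGFRb sort. Igfbp3 is high in CD31 BrM libraries over the whole range of epithelial sums, and Igfbp4 is highest in the PDGFRb lung libraries, where the sum is highest.

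The make-up of binding protein mRNA changed with these levels. The summed FPKM of Igfbp2 to Igfbp7 in the CD31 sort was 226 ± 55.4 without tumor, and 2676 ± 885 and 2674 ± 861 in breast and lung BrM (SD, n = 5 each). Igfbp7 went from 85.8% to 43.7% ± 7.41 of it in breast BrM and 47.9% ± 2.33 in lung BrM, with no overlap with non-tumor brain. Igfbp3 took 41.9% ± 3.05 in breast and 33.4% ± 5.94 in lung BrM, and Igfbp4 9.05% ± 4.88 and 17.3% ± 6.04, which overlapped between the tumor groups. By mean FPKM Igfbp7 (1209.9 and 1285) and Igfbp3 (1136 and 927) stood above more than 99% of the genes in the FPKM table, at 99.5% for Igfbp7 in both and at 99.4% and 99.2% for Igfbp3. Igf1r, the second of the 9 genes in non-tumor endothelium at 112 ± 19.1 FPKM, was the fifth in breast (22.4 ± 7.48) and lung BrM (18.03 ± 6.48).

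**Figure D4:**
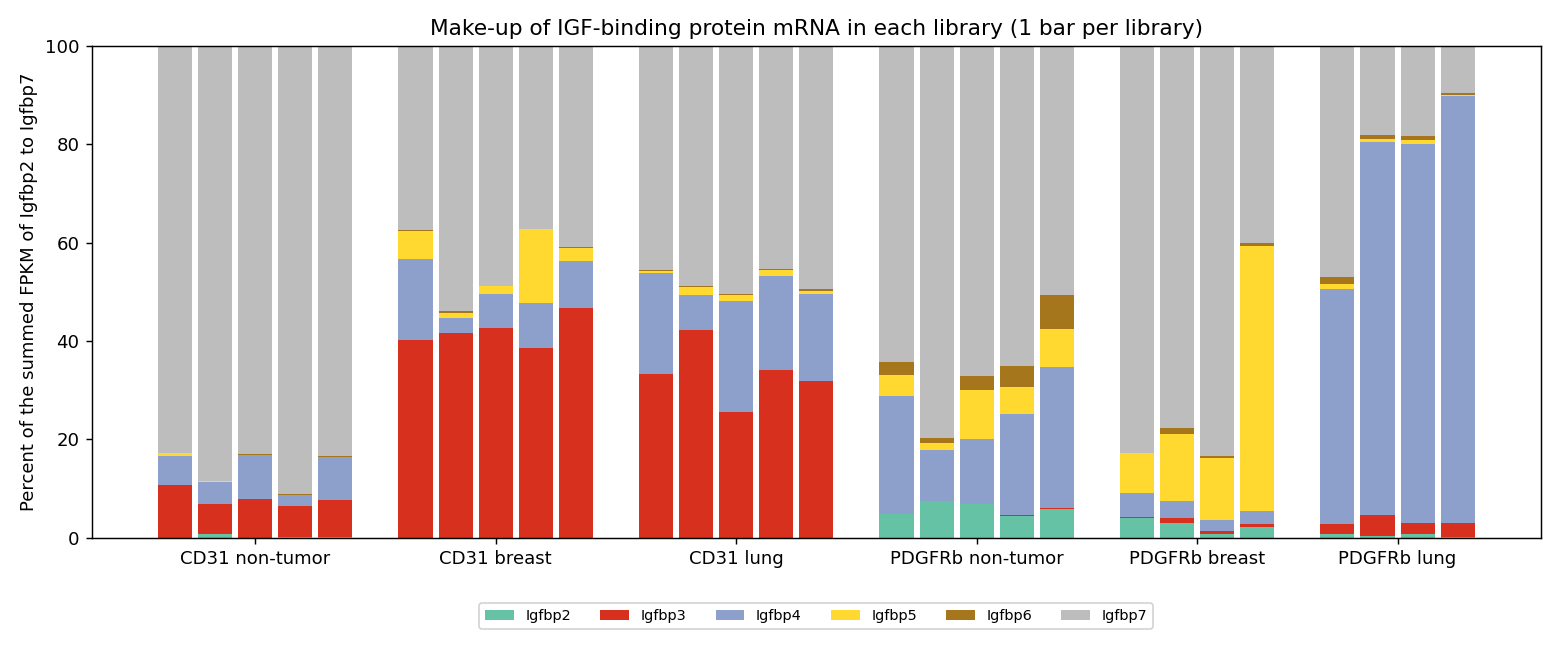
Percent of the summed FPKM of Igfbp2 to Igfbp7 that each gene holds, 1 bar per library. Igfbp7 (grey) leads in non-tumor brain, Igfbp3 (red) reaches about the share of Igfbp7 in CD31 breast BrM libraries, and Igfbp4 (blue) holds 47.8% to 87.0% of the sum in the 4 PDGFRb lung libraries.

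The promoters of Igfbp3, Igfbp4, Igfbp5 and Igfbp7, which rose together in the CD31 sort of both BrM models, are shown as the 250 bases before the RefSeq start, 5′ to 3′ on the gene's strand, in build GRCm38.p6. They lie at chr11:7213924-7214173 on the minus strand for Igfbp3, chr11:99040994-99041243 on the plus strand for Igfbp4, chr1:72874866-72875115 on the minus strand for Igfbp5 and chr5:77408046-77408295 on the minus strand for Igfbp7. Capitals mark matches on either strand to TATAAA (the TATA box), GGGCGG (the GC box), ACGTG (a form of the core of the hypoxia response element, also part of the E-box CACGTG) and TGACTCA (the AP-1 site). The other form of that core, GCGTG, was not marked or counted.
Igfbp3: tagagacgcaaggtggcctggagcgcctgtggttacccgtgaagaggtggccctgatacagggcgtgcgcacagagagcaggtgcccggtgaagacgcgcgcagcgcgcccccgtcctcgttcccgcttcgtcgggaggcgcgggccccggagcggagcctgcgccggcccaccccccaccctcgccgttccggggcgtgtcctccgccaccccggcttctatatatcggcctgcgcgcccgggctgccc
Igfbp4: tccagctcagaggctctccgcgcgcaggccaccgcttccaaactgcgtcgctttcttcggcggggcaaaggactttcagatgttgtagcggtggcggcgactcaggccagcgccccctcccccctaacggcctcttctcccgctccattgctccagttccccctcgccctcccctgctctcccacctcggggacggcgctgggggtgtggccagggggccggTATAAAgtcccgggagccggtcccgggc
Igfbp5: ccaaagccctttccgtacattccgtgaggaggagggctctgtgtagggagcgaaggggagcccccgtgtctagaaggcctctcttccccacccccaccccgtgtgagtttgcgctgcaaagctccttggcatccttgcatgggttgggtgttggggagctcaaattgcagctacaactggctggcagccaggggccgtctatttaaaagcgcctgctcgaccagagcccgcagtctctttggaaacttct
Igfbp7: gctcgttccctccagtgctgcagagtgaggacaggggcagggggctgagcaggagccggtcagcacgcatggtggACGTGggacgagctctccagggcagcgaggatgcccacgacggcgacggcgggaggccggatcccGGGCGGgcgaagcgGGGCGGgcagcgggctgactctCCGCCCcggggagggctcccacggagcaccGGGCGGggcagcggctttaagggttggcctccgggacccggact
Igfbp4 held 1 TATAAA, and Igfbp7 held 4 GGGCGG and 1 ACGTG. Igfbp3 and Igfbp5 held none of the 4 motifs in this window, which says only that these letters are not there. Of 32851 promoters of the same length, 12.4% held TATAAA, 32.7% GGGCGG, 16.6% ACGTG and 4.46% TGACTCA. The GC content was 73.2%, 69.2%, 58.8% and 74.0% for Igfbp3, Igfbp4, Igfbp5 and Igfbp7, against a median of 52.4%. All 9 genes matched an entry in the table. On the chromosomes Igfbp5 is the neighbour of Igfbp2 on chromosome 1, and Igfbp3 that of Igfbp1 on chromosome 11. Igfbp2 did not pass the filter in endothelial cells, where Igfbp5 rose.

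The 2 tumor origins were also compared directly. None of the 8 genes tested in the CD31 sort was called between lung and breast BrM, where 2.13% of all genes were called (0.578% higher and 1.55% lower in lung BrM). At an unadjusted p under 0.05 there were 4, and DESeq2 called 2 (Igfbp4 and Igf1). Igf1 had a log2 difference of 3.53 ± 0.98 (adjusted p = 0.077, and 0.0035 in DESeq2). It was called without the lung library of mouse 51435 (adjusted p = 0.036) or 56195-56520 (adjusted p = 0.044), and Igf2r without that of mouse 51697 (-1.18, adjusted p = 0.026). Igfbp5 was at -1.75 ± 0.66 (adjusted p = 0.22) and Igf2r at -0.88 ± 0.29 (adjusted p = 0.15). Igfbp3 (-0.27 ± 0.31), Igfbp7 (0.10 ± 0.33) and Igf1r (-0.01 ± 0.31) had differences smaller than their standard errors.

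In the PDGFRb sort Igfbp3 and Igfbp5 rose in breast BrM, and Igfbp3 and Igfbp4 rose in lung BrM. In breast BrM 2 of 9 genes were called, both higher, beside 6.3% of all 17028 genes called higher and 2.69% lower (8.99% called). In lung BrM 2 of 9 were called, both higher, beside 9.91% called higher and 7.58% lower (17.5% called), a share of members near that of all genes. Both comparisons share the 5 non-tumor libraries.

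Igfbp3 stood at 5.47, 20.5, 8.11 and 7.77 CPM in PDGFRb libraries of breast BrM, all above the 0.045 to 1.79 CPM of non-tumor brain (log2 3.54 ± 0.85, adjusted p = 0.021). The call was lost without the breast library of mouse 52599 (2.94, adjusted p = 0.059), without the non-tumor library of mouse 53680 (3.51, adjusted p = 0.055) and with the date as a covariate (4.51, adjusted p = 0.29). In lung BrM Igfbp3 stood at 53.98, 141, 63.1 and 114 CPM (6.71 ± 0.97, adjusted p = 0.0005). The lowest of these was mouse 51435, the library that kept the most Pdgfrb, and without the other 3, with 1 lung library left, the change was 5.83 (adjusted p = 0.076). The date as a covariate also ended the lung call of Igfbp3 (7.12, adjusted p = 0.094). With mouse 54135 placed by cell type label Igfbp3 was at 0.36 in breast (adjusted p = 0.89) and 3.501 in lung BrM (adjusted p = 0.08), and Igfbp5 at 3.38 in breast BrM (adjusted p = 0.06).

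Igfbp4 separated the 2 tumor origins in the PDGFRb sort. It stood at 1245, 3024, 2401 and 3127 CPM in lung BrM, all above the 71.4 to 237 CPM of non-tumor brain (3.94 ± 0.62, adjusted p = 0.00092). In mouse 51435, whose library kept the most Pdgfrb, it was lowest, and without the other 3 libraries the change was 2.87 (adjusted p = 0.16). In breast BrM it stood at 301 CPM in the shallow library of mouse 51950 and at 64.8, 29.8 and 46.7 CPM in the others (-0.58 ± 0.58, adjusted p = 0.60). Without mouse 51950 it fell, with a log2 change of -1.81 (adjusted p = 0.012). Between lung and breast BrM the log2 difference was 4.52 ± 0.70 (adjusted p = 0.0025).

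Igfbp5 stood at 817, 750.4, 443 and 2099 CPM in breast BrM against 72.7 to 197 CPM in non-tumor brain, with no overlap (2.98 ± 0.46, adjusted p = 0.0018, and 0.12 with the date as a covariate). In lung BrM it stood at 84.97, 45.0, 67.9 and 24.0 CPM, which overlapped non-tumor brain (-1.24 ± 0.46, adjusted p = 0.08). Igfbp5 was lower in lung than in breast BrM by 18.6-fold (-4.21 ± 0.54, adjusted p = 0.00068). These 2 genes, Igfbp4 higher and Igfbp5 lower, were the 2 of 9 called between the tumor origins, where 5.47% of all genes were called (3.08% higher and 2.39% lower). Both calls ended without the 3 lung libraries low in Pdgfrb (Igfbp4 3.53, adjusted p = 0.24, and Igfbp5 -3.60, adjusted p = 0.32) and with the date as a covariate (4.76, adjusted p = 0.091, and -4.66, adjusted p = 0.078).

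Igfbp7 stood at 1438, 629, 430.1 and 236 CPM in breast BrM and 506, 239, 201 and 154 CPM in lung BrM, both overlapping non-tumor brain (1.296 ± 0.52, adjusted p = 0.13, and -0.01 ± 0.52, adjusted p = 0.99). Igfbp2 stood at 61.0, 22.4, 3.57 and 11.05 CPM in breast BrM (0.07 ± 0.75, adjusted p = 0.97), and these overlapped non-tumor brain. In lung BrM it stood at 7.84, 4.36, 7.22 and 1.99 CPM, all below the 11.4 to 50.7 CPM of non-tumor brain (-2.11 ± 0.81, adjusted p = 0.089, and 0.013 in DESeq2). Igfbp6 stood at 0, 9.46, 3.11 and 2.71 CPM in breast BrM (-1.67 ± 0.94, adjusted p = 0.30) and at 14.8, 12.4, 8.10 and 6.43 CPM in lung BrM (-0.24 ± 0.90, adjusted p = 0.90).

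Among ligands and receptors of the mural sort none was called. Igf1 stood at 13.8, 11.4, 23.4 and 19.2 CPM in lung BrM, above all 5 non-tumor libraries (0.103 to 4.80 CPM) and all 4 breast libraries (0 to 2.06 CPM). The log2 change of Igf1 in lung BrM was 3.08 ± 1.03 (adjusted p = 0.055), and DESeq2 (2.95, adjusted p = 0.0049) and limma on the deposited log2 values (3.79, adjusted p = 0.045) called it. Igf2 stood at 159, 48.8, 6.51 and 30.9 CPM in breast BrM and at 57.3, 2.26, 22.5 and 1.70 CPM in lung BrM. The breast libraries overlapped the non-tumor libraries (117 to 248 CPM), with a log2 change of -1.43 ± 0.94 (adjusted p = 0.38). The lung libraries lay below all non-tumor libraries, with a log2 change of -2.99 ± 1.01 (adjusted p = 0.055). Igf1r stood at 0.332, 47.7, 45.8 and 23.2 CPM in breast BrM and 54.5, 77.9, 53.3 and 46.0 CPM in lung BrM (-1.02 ± 0.77, adjusted p = 0.46, and -0.03 ± 0.75, adjusted p = 0.99). The library at 0.332 CPM is that of mouse 51950. Igf2r stood at 24.7 CPM in that library and 127, 139.6 and 104 CPM in the others of breast BrM (1.02 ± 0.45, adjusted p = 0.17). Without mouse 51950 its rise was called (1.31, adjusted p = 0.0039).

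In the PDGFRb sort of lung BrM 6 of 10 pericyte markers, 7 of 8 smooth muscle markers and 4 of 10 fibroblast markers were lower, and 6 of 10 epithelial markers were higher. Of all genes tested there, 7.58% were lower and 9.91% higher in lung BrM, and 2.69% and 6.3% in breast BrM. Astrocyte markers were lower in 5 of 8 and neuron markers in 4 of 7 tests in lung BrM, and in 3 of 8 and 4 of 7 tests in breast BrM. The astrocyte sum was 298 to 4782 CPM and the neuron sum 3.37 to 1430.6 CPM in the non-tumor PDGFRb libraries, against at most 815 and 40.5 CPM in those of BrM. The pericyte sum was 7397 CPM in mouse 51435 and 201, 302 and 358 CPM in the other 3 libraries, against 17439 to 28290 CPM in non-tumor brain. Of the epithelial markers, Esrp1 was at 0 in all 4 lung libraries. In breast BrM 7 of 10 epithelial and none of 10 pericyte markers were called. The pericyte sum was 5521 CPM there in mouse 53072, the library with the highest Igfbp5 (2099 CPM) and the highest epithelial sum (3938 CPM), and 10510.3 to 12974 CPM in the others. In those 3, mice 51950, 52599 and 52865, the epithelial sum was 817, 1791 and 2079 CPM where Igfbp5 was 817, 750.4 and 443 CPM. The part of these cells in the changes of Igfbp3, Igfbp4 and Igfbp5 in the mural sort was not tested.

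In the PDGFRb sort the summed FPKM of the 6 binding proteins was 541 ± 220.2 (n = 5) in non-tumor brain. It was 987 ± 478 (n = 4) in breast BrM and 1538 ± 330 (n = 4) in lung BrM. In breast BrM Igfbp7 held 71.0% ± 20.7 and Igfbp5 22.0% ± 21.4, of which mouse 53072 had the highest Igfbp5 share, 53.9%. In lung BrM Igfbp4 held 71.9% ± 16.9 and Igfbp7 23.2% ± 16.4. The Igfbp4 share ranged from 47.8% to 87.0% there, above its 10.2% to 28.7% in non-tumor brain and its 2.28% to 4.96% in breast BrM.

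The sorts were then compared within each tumor origin. In breast BrM 4 of 9 genes were called, 1 higher and 3 lower in the PDGFRb sort, beside 9% and 7.51% of all genes (16.5% called). Igfbp2 was higher (7.73 ± 1.41, adjusted p = 0.00026), and Igfbp3 (-7.89 ± 0.75, adjusted p = 2.5e-08), Igfbp4 (-2.19 ± 0.51, adjusted p = 0.0032) and Igf1r (-1.92 ± 0.58, adjusted p = 0.023) were lower. With the mouse as a block Igf1r was not called (-2.52, adjusted p = 0.05), nor was it without the CD31 library of mouse 52599 (-1.499, adjusted p = 0.082) or the PDGFRb library of mouse 53072 (-1.82, adjusted p = 0.056). In lung BrM 4 of 9 were called, 2 higher and 2 lower, beside 10.2% and 9.36% of all genes (19.6% called). Igfbp2 (5.78 ± 1.32, adjusted p = 0.0026) and Igfbp4 (1.38 ± 0.48, adjusted p = 0.041) were higher, and Igfbp3 (-4.43 ± 0.63, adjusted p = 1.1e-05) and Igfbp7 (-1.99 ± 0.49, adjusted p = 0.0046) were lower. The block ended the call of Igfbp4 (1.25, adjusted p = 0.095), as did leaving out any 1 of the 5 CD31 lung libraries or of the 3 PDGFRb lung libraries low in Pdgfrb (adjusted p = 0.053 to 0.15). Leaving out the 3 lung libraries low in Pdgfrb together ended those of Igfbp4 (0.29, adjusted p = 0.96) and Igfbp7 (-1.23, adjusted p = 0.56).

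Whether the change from non-tumor brain differed between the sorts was tested as an interaction. In breast BrM 3.57% of all genes had a lower and 2.35% a higher change in the PDGFRb than the CD31 sort (5.93% called). Among the 9 genes, 4 had the lower change in the PDGFRb sort. They were Igfbp4 (-4.96 ± 0.70, adjusted p = 4.7e-05), Igfbp5 (-5.54 ± 1.01, adjusted p = 0.00088), Igfbp6 (-5.39 ± 1.46, adjusted p = 0.025) and Igf2r (-1.80 ± 0.54, adjusted p = 0.045). For Igfbp3 the difference was -2.51 ± 0.77 (adjusted p = 0.051, and 0.012 in DESeq2). With the mouse as a block Igfbp6 (-5.23, adjusted p = 0.27) and Igf2r (-1.96, adjusted p = 0.12) were not called. The call of Igf2r was lost in 12 of 19 fits without 1 library (adjusted p = 0.056 to 0.078), and that of Igfbp6 without the CD31 breast library of mouse 52599 (-4.29, adjusted p = 0.067). In lung BrM 5 of 9 were called, 4 lower and 1 higher, beside 6.35% and 3.77% of all genes (10.1% called). Igfbp5 (-8.00 ± 1.07, adjusted p = 1.1e-05) and Igfbp6 (-4.87 ± 1.44, adjusted p = 0.029) had the lower change in the PDGFRb sort. So did Igfbp7 (-2.69 ± 0.65, adjusted p = 0.0071) and Igf2r (-1.81 ± 0.54, adjusted p = 0.03). Igf1r had the higher change there (2.60 ± 0.76, adjusted p = 0.027). The block ended the calls of Igfbp6 (-5.05, adjusted p = 0.14), Igf1r (2.31, adjusted p = 0.17) and Igf2r (-1.63, adjusted p = 0.13). Leaving out 1 library ended the call of Igfbp6 in 4, of Igf1r in 3 and of Igf2r in 5 of 19 fits (adjusted p = 0.05 to 0.075). Without the 3 lung libraries low in Pdgfrb none of the 9 was called, and Igfbp5 was at -7.54 (adjusted p = 0.054). With mouse 54135 placed by cell type label 1 call was left in each tumor origin, Igfbp4 in breast and Igfbp7 in lung BrM. The breast interactions then stood at -0.69 for Igfbp5 (adjusted p = 0.98), -2.50 for Igfbp6 (adjusted p = 0.70) and -1.40 for Igf2r (adjusted p = 0.39). The lung interactions stood at -3.14 for Igfbp5 (adjusted p = 0.46), -1.97 for Igfbp6 (adjusted p = 0.71), 0.70 for Igf1r (adjusted p = 0.87) and -1.42 for Igf2r (adjusted p = 0.29). Without both libraries of that mouse Igfbp6 (-5.52, adjusted p = 0.051) and Igf2r (-1.87, adjusted p = 0.07) in breast BrM and Igf1r (2.58, adjusted p = 0.058) in lung BrM were not called.

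Other genes of the IGF axis were read from 7 lists of 54 genes. In the CD31 sort 45 were tested, of which 16 rose and 6 fell in breast BrM and 13 rose and 8 fell in lung BrM. Of all genes tested there, 18.6% rose and 11.4% fell in breast BrM, and 20.4% rose and 14.5% fell in lung BrM. The median log2 change of the 45 was 0.10 and 0.21, beside 0.04 and -0.00 for all genes. Of 8 proteases of binding proteins and their inhibitors tested, 4 rose in breast BrM, and 4 rose and 1 fell in lung BrM. Stc2, a stanniocalcin that inhibits the IGFBP-4 protease PAPP-A, went from 0.258 ± 0.254 to 17.5 ± 5.84 CPM in breast BrM (log2 6.06 ± 0.65, adjusted p = 3.4e-06) and 19.4 ± 2.97 CPM in lung BrM (6.25 ± 0.65, adjusted p = 2.6e-06). Timp1, a metalloprotease inhibitor, went from 1.05 ± 0.543 to 38.1 ± 15.6 CPM in breast BrM (5.19 ± 0.47, adjusted p = 6.5e-07). In lung BrM it was at 56.2 ± 15.6 CPM (5.79 ± 0.49, adjusted p = 2.7e-07). Of the 6 receptor adaptors tested 2 rose and 1 fell in breast BrM, and 1 rose and 2 fell in lung BrM. Irs2, which links the receptor to PI3K, went from 0.312 ± 0.288 to 14.9 ± 18.6 CPM (5.62 ± 1.44, adjusted p = 0.0071) and 10.1 ± 14.8 CPM (5.07 ± 1.41, adjusted p = 0.011).

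Of 8 other secreted proteins with an IGFBP domain, 4 rose and 3 fell in breast BrM, and 4 rose and 2 fell in lung BrM. Esm1, a proteoglycan of endothelial cells, went from 9.29 ± 3.34 to 400.1 ± 204 CPM in breast BrM (5.45 ± 0.47, adjusted p = 3.5e-07). In lung BrM it was at 149 ± 87.2 CPM (4.07 ± 0.44, adjusted p = 3.6e-06). Ccn5, a matricellular protein, had 0 counts in all 5 non-tumor libraries and 152 counts in breast and 443 counts in lung BrM, at least 54.5-fold and at least 182-fold higher against 3 counts over the non-tumor group (adjusted p = 0.0046 and 0.0014). PI3K, AKT and FOXO genes moved both ways, with 3 of 15 higher and 2 lower in breast BrM and 2 higher and 3 lower in lung BrM. Receptors and co-receptors had 3 of 6 higher in breast and 2 of 6 in lung BrM and none lower. With the date as a covariate 10 rose and 5 fell in breast BrM, and 8 rose and 1 fell in lung BrM. None of the 45 was called between lung and breast BrM, where 2.13% of all genes were called. Of the 45, 9 had an unadjusted p under 0.05 there, and DESeq2 called 1.

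In the PDGFRb sort 49 of the 54 were tested, of which 4 rose and 2 fell in breast BrM and 7 rose and 6 fell in lung BrM. Of all genes tested there, 6.3% rose and 2.69% fell in breast BrM, and 9.91% rose and 7.58% fell in lung BrM. The median log2 change of the 49 was -0.39 and -0.36, beside -0.16 and -0.03 for all genes. In breast BrM Timp1 went from 2.95 ± 1.26 to 142 ± 130.04 CPM (5.60 ± 0.71, adjusted p = 0.0005), Stc1, the other stanniocalcin, from 18.9 ± 8.03 to 250.03 ± 240.3 CPM (3.77 ± 0.79, adjusted p = 0.011), and Itgb3, an integrin subunit, from 8.16 ± 4.13 to 53.9 ± 34.3 CPM (2.77 ± 0.57, adjusted p = 0.0086). Igfbpl1, a relative of the binding proteins, had 1006 counts in non-tumor brain and 0 in breast BrM, at least 226-fold lower against 3 counts over the breast group (adjusted p = 0.038). In lung BrM Timp1 rose (4.69 ± 0.68, adjusted p = 0.00051), and Vtn, a pericyte gene whose product vitronectin binds binding-protein complexes, fell from 9141 ± 2407 to 805 ± 1492 CPM (-3.53 ± 1.11, adjusted p = 0.042). Both IGF2 mRNA-binding proteins tested rose there, Igf2bp1 by 4.41 ± 1.05 (adjusted p = 0.011) and Igf2bp2 by 5.45 ± 1.54 (adjusted p = 0.026). Without the 3 lung libraries low in Pdgfrb 1 gene rose and none fell, and without the breast library of mouse 51950 the counts were 6 and 8 in breast BrM and 10 and 15 in lung BrM. With the date as a covariate none was called in breast BrM (8 had an unadjusted p under 0.05), so the 4 breast genes named above were not, and in lung BrM none rose and 6 fell.

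Between lung and breast BrM of the PDGFRb sort 2 of the 49 were higher and 5 lower, beside 3.08% and 2.39% of all genes. Igf2bp1 was higher (6.33 ± 1.27, adjusted p = 0.013), and so was Igfals, the acid-labile subunit that stabilises IGF complexes in plasma (adjusted p = 0.044). Igfals had 318 counts summed over the lung libraries against 2 over the breast libraries, a ratio of 150.1 (95% counting interval 41.2 to 1244). That interval covers the counting of pooled reads only and leaves out the spread between mice. Pik3cd, a PI3K catalytic subunit, stood at 13.9 ± 17.2 against 173 ± 155 CPM (-3.66 ± 0.80, adjusted p = 0.019), and Pik3r1, a regulatory subunit, at 39.8 ± 34.2 against 218 ± 83.1 CPM (-2.48 ± 0.46, adjusted p = 0.0075). Without the 3 lung libraries low in Pdgfrb none of the pathway genes was called in edgeR, and 7 had an unadjusted p under 0.05.

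The genes whose level followed a binding protein most closely over the libraries of a sort were found by the mean absolute difference of log2(CPM + 1) after centring. They are a description of libraries that share tumor state and cell make-up. In the 15 CD31 libraries the genes nearest to Igfbp3 were Fam167b (0.30), Piezo2, a mechanosensitive channel (0.35), and Adamts4, a matrix protease (0.36), while Igfbp3 itself spanned 6.83 log2 units. Nearest to Igfbp4 (6.10 units) were Disp2 (0.43), Timp1 (0.43) and Cd109 (0.44), and nearest to Igfbp5 (10.29 units) were Kcne3 (0.86), the laminin chain Lamb1 (0.92) and Tgfbi (0.92). In the 13 PDGFRb libraries Igfbp3 lay nearest to Anxa4 (0.46), the urokinase receptor Plaur (0.48) and S100a6 (0.53), Igfbp4 to the adhesion molecule Vcam1 (0.60), Gsta4 (0.65) and Fgfr4 (0.69), and the genes near Igfbp5 included Mia (0.61) and Xaf1 (0.64). No gene was shared between the sorts for any of the 3 binding proteins.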

How the data were processed

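RNA of CD31 and PDGFRb sorts was sequenced from SMART-Seq HT Ultra Low Input and Nextera XT libraries, per the labels' protocols, which keep no strand and no molecular identifiers. Per the submitters' processing notes, tools were limma 3.50.3, edgeR 3.36.0, RSEM 1.3.3 and STAR 2.7.9a, with mm10. The annotation release is not given in the sources used here. The deposited expected counts are the authors' estimated counts per gene, with fractions in 5.25% of values. The FPKM values were deposited by the authors for 18665 genes, as were log2 values of scaled counts, 1 table per sort. Of 53647 gene IDs 52093 matched a symbol, and rows without one held 0.182% to 1.57% of a library's counts.

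Expected counts were rounded, filtered with filterByExpr, scaled by TMM and tested with edgeR 4.0.16 in R 4.3.3 (robust quasi-likelihood, Benjamini-Hochberg over all genes). The 3 states of a sort shared 1 fit, and sorts were compared in a fit of all 6 groups. CPM rest on TMM-scaled totals, except for marker sums, Pecam1, Pdgfrb, Epcam and Krt8, which rest on raw totals. SE is the log2 change divided by the root of F. Groups and mouse numbers come from the titles. That replicates are mice rests on these numbers.

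All 9 genes are named. From the pathway lists up to 4 called genes with the largest change per comparison within a sort, and Igf2, are named. For the 3 genes with the widest range in each sort the 3 nearest genes with a range of at least 2 are named. Of these, 1 gene is not reported here. The genes, lists and rules were chosen with earlier results of these data known. Promoters are RefSeq's.

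Pairing rests on the same mouse in both sorts. Deviations from the group means of the 13 pairs correlated at -0.11 to 0.34 over 14191 genes (median -0.01), and 3 pairs were over 0.1. Fits with the mouse as a block were an alternative, as were RLE scaling, DESeq2 1.42.0, limma 3.58.1 on the log2 values, no filter, the date of the column names as a covariate, and leaving out or regrouping libraries.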

Additional observations from a re-analysis of the deposited data

Results flagged for a closer look

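Among the 54 sets of libraries of 1 gene and 1 group, 8 held a library far above the others of its group, where chance alone gives about 1 in 20. Mouse 54132 stood apart for Igfbp2 in both sorts of non-tumor brain, at 1.12 CPM in the CD31 library and 50.7 CPM in the PDGFRb library, and for Igfbp7 in the PDGFRb library (600.2 CPM). Mouse 52599 stood apart in the CD31 sort of breast BrM for Igfbp2 (0.562 CPM), Igfbp6 (10.03 CPM) and Igf1r (223 CPM). The PDGFRb breast library of mouse 51950 stood apart for Igfbp4 (300.7 CPM), and the PDGFRb non-tumor library of mouse 56740 for Igfbp6 (25.2 CPM).

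The change from non-tumor brain differed between the sorts for 9 pairs of gene and tumor, by the interaction test in edgeR, given as the log2 change in the PDGFRb sort minus that in the CD31 sort. In breast BrM the differences were -4.96 for Igfbp4, -5.54 for Igfbp5, -5.39 for Igfbp6 and -1.80 for Igf2r. In lung BrM they were -8.00 for Igfbp5, -4.87 for Igfbp6, -2.69 for Igfbp7, 2.60 for Igf1r and -1.81 for Igf2r.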

How the results depend on the processing

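In the CD31 sort Igfbp3, Igfbp4, Igfbp7 and Igf1r were called under every alternative run, with log2 changes of 5.87 to 6.33, 3.91 to 4.66, 2.43 to 2.81 and -3.04 to -2.33 in breast BrM and 5.21 to 6.08, 4.88 to 5.62, 2.30 to 2.90 and -2.83 to -2.17 in lung BrM. In the counts and values below the cause of a change was not tested. With the date as a covariate 5 genes were called for CD31 lung BrM, 0 for PDGFRb breast BrM, 1 for PDGFRb lung BrM and 0 for PDGFRb lung against breast BrM. With mouse 54135 grouped by cell type label, 0 were called for PDGFRb breast BrM, 1 for PDGFRb lung BrM, 0 for the sorts in non-tumor brain, and 1 each for the breast and lung interactions. DESeq2 called 2 for CD31 lung against breast BrM, 5 for PDGFRb lung BrM and 5 for PDGFRb lung against breast BrM. Without the PDGFRb breast library of mouse 51950 there were 4 for PDGFRb breast BrM and 5 for lung against breast BrM. Without the 3 PDGFRb lung libraries low in Pdgfrb there were 0 for PDGFRb lung BrM, 0 for lung against breast BrM, 2 for the sorts in lung BrM and 0 for the lung interaction. Leaving out each library in turn gave 0 to 1 for CD31 lung against breast BrM (main value 0), 1 to 4 for PDGFRb breast BrM, 2 to 5 for PDGFRb lung against breast BrM, 3 to 6 for the breast interaction and 3 to 5 for the lung interaction.

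Same-mouse libraries of the 2 sorts can be paired only where both sorts enter a fit. With the mouse as a replicate block 2 genes were called for the breast and 2 for the lung interaction, Igf2r between the sorts in lung BrM was at 0.14, and the block changed no call beside those named with the results.

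Direction changed only for values that were not called in either fit, the lowest adjusted p among the alternatives being 0.34. With the date as a covariate they were -0.92, -0.45 and 0.56 for Igfbp6, Igfbp7 and Igf1r in CD31 lung against breast BrM, 0.32 for Igf1 in PDGFRb breast BrM, 0.20, 0.28 and -0.12 for Igfbp7, Igf1r and Igf2r in PDGFRb lung BrM, and 0.067 for Igf2r between the sorts in lung BrM. Igfbp2 in PDGFRb breast BrM was at -0.44 with limma, -0.013 with no filter, -0.91 without mouse 51950 and -0.11 without mouse 54135. In PDGFRb lung BrM Igf2r was at -0.0186 with DESeq2, -0.0185 with RLE scaling and -0.10 without mouse 54135, and Igfbp6 and Igfbp7 were at 0.18 and 0.81 without the 3 libraries low in Pdgfrb. Igf2r between the sorts in breast BrM was at 0.15 without mouse 51950. With mouse 54135 by cell type label the interactions were -0.32 for Igf1r in breast BrM and 3.17 and -2.43 for Igfbp2 and Igfbp3 in lung BrM, where Igfbp3 was at -0.0067 without the 3 libraries. Leaving out each library in turn gave -0.13 to 0.32 for Igfbp7 and -0.22 to 0.43 for Igf1r in CD31 lung against breast BrM, and -0.91 to 0.47 for Igfbp2 in PDGFRb breast BrM. In PDGFRb lung BrM the ranges were -0.53 to 0.15 for Igfbp6, -0.54 to 0.40 for Igfbp7, -0.22 to 0.041 for Igf1r and -0.10 to 0.22 for Igf2r. Between the sorts they were -0.68 to 1.498 for Igfbp6 and -0.36 to 0.15 for Igf2r in breast BrM and -0.34 to 0.16 for Igf2r in lung BrM, and -1.74 to 0.84 for the lung interaction of Igfbp2.

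RLE scaling moved the median of all genes by -0.12 in both PDGFRb comparisons with non-tumor brain, by 0.17 between the sorts in non-tumor brain and by -0.15 in the lung interaction. Igfbp2, Igfbp6 and Igf1 lie near 1 CPM or below in several groups, where single counts move the values.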
